A study of Homo sapiens with 34 samples.

Results

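This report describes how the untreated mature B cell line RAMOS differed in gene expression from the untreated pre-B cell lines NALM6 and 697. The comparison took 9 of the 34 RNA-seq libraries of the series: 3 of RAMOS without etoposide, against 3 of NALM6 without etoposide and 3 of 697 without etoposide. The rule kept a gene where RAMOS differed in the same direction from each pre-B line. RAMOS is an established line grown from a Burkitt lymphoma, and NALM6 and 697 are established lines grown from B-lineage acute lymphoblastic leukemia. Libraries made after 10 µM etoposide for 4 h, a topoisomerase II poison that leaves DNA breaks, exist for the same lines and are used only where stated. No library of the comparison received the drug. Each side is 1 cell line or a pair of lines, so every difference is one between these lines and carries the genetic changes each line acquired.

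In the bone marrow, a pre-B cell has rearranged its immunoglobulin heavy chain gene with the RAG recombinase and shows the heavy chain with a surrogate light chain made of VPREB1 and IGLL1 products. Terminal transferase, encoded by DNTT, adds bases at the joins. A mature B cell carries a complete receptor with the CD79A and CD79B signalling chains, and after meeting antigen it can enter a germinal centre. There it divides fast under the repressor BCL6 while its immunoglobulin genes mutate. Burkitt lymphoma is known for a germinal centre pattern of expression.

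Total counts ran from 8.18 to 22.8 M per library in RAMOS, from 11.1 to 34.2 M in NALM6 and from 16.6 to 23.3 M in 697. Per the file names, all RAMOS libraries came from 1 library pool and all untreated NALM6 and 697 libraries from another. Pool and line therefore cannot be told apart in any difference below. Levels are given as CPM, counts divided by library size in units of 1e+06 after TMM scaling over the 9 libraries, in the order of replicates 1 to 3. They compare 1 gene between lines and not genes with each other, since CPM is not divided by gene length. RAMOS replicate 2 stood apart. Over 39 genes at 100 CPM or more in both pre-B lines and below 2% of that in RAMOS, a set chosen after the values were seen, the sums were 21.6, 72.4 and 23.5 CPM in RAMOS replicates 1 to 3, from 182, 1700 and 532 reads. Replicate 2 was the highest of the 3 for 38 of these genes, and its sum equalled 0.654% of the NALM6 sum and 0.568% of the 697 sum. Log2 differences printed for single genes near 0 in RAMOS are therefore given with and without it.

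Marker genes went with the labels. Their sums use 1 TMM scaling over the 17 untreated libraries of the series, unlike the single-gene levels scaled over 9 libraries. Markers of mature B cells summed to 5187 ± 26.1 CPM in RAMOS, against 1616.7 ± 98.7 CPM in NALM6 and 1812 ± 35.6 CPM in 697 (SD, n = 3 each). Pre-B markers summed to 190.2 ± 10.1 CPM in RAMOS, against 5006.3 ± 144 CPM in NALM6 and 5485.7 ± 35.8 CPM in 697. Of the RAMOS pre-B sum most came from LEF1 and SOX4, which are also used outside pre-B cells. T cell markers reached at most 19.83 CPM per library in RAMOS, against 66.28 CPM in NALM6 and 120.4 CPM in 697. The CD3 chain genes CD3D, CD3E and CD3G were too low to be tested, while CD247 was tested and lay above NALM6 and below 697. NK markers summed to at most 1.678 CPM and myeloid markers to at most 6.472 CPM in RAMOS, against highs of 23.22 and 34.28 CPM in the pre-B lines. Erythroid markers summed to 13.58 ± 0.205 CPM in RAMOS, nearly all from EPOR, against 4.1677 ± 0.172 CPM in NALM6 and 0.76507 ± 0.334 CPM in 697, while the globin genes were too low to be tested. Stromal markers summed to 6.8837 ± 5.69 CPM in RAMOS, against 2006.7 ± 97.2 CPM in NALM6 and 1432.7 ± 12.9 CPM in 697, where VIM, which leukemic blasts also use, gave most of the sum. The part of other cells in any difference was not tested.

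Of 13555 genes tested, 4496 were higher in RAMOS than in each pre-B line, which is 33.2%, and 4091 were lower than in each, which is 30.2% (edgeR quasi-likelihood test, Benjamini-Hochberg adjusted p under 0.05 against each line). With at least a 2-fold difference from each line, 2148 genes were higher, which is 15.8%, and 1837 were lower, which is 13.6%. These shares are the background for every gene group below. Another 1159 genes lay between the pre-B lines in direction, above one and below the other, 1342 differed from NALM6 only, 1730 from 697 only and 737 from neither. Every RAMOS library lay above every pre-B library for 4564 genes and below every one for 4075. The median log2 difference over all genes was 0.02 against NALM6 and 0.03 against 697. In 4 bins of equal size by exon length, with lengths found for 12026 genes or 88.7%, between 31.1 and 34.4% were higher and between 29.6 and 32.7% lower.

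**Figure D1:**
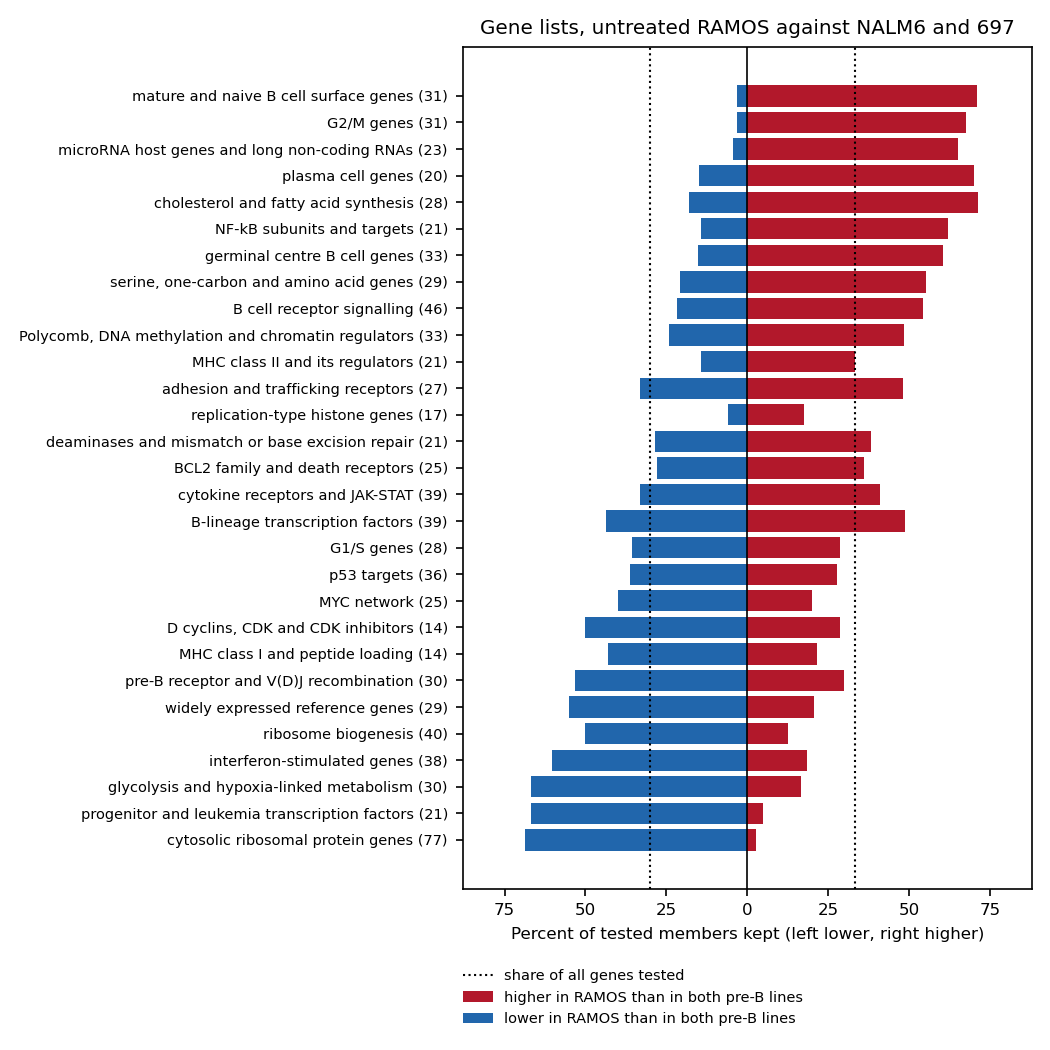
Share of the tested members of each gene list that was higher in RAMOS than in both pre-B lines (right) or lower than in both (left), in percent, with the number of tested members in brackets. The dotted lines mark the shares over all genes tested, 33.2% higher and 30.2% lower, and sterol and fatty acid genes and surface genes of mature B cells reach farthest right, at 71.4 and 71%, and ribosomal protein genes farthest left, at 68.8%.

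Several genes that define early B cell development were near 0 in RAMOS. In bulk RNA, fewer cells that use a gene and less of its RNA per cell cannot be told apart, here or below. Of 30 tested genes of the pre-B receptor and V(D)J recombination, 16 were lower and 9 higher in RAMOS than in both pre-B lines, with median log2 differences of −0.73 against NALM6 and −0.39 against 697. DNTT, the terminal transferase gene, had 0.357, 3.58 and 0.353 CPM in RAMOS, against 1376, 1344 and 1365 CPM in NALM6 and 2441, 2437 and 2420.4 CPM in 697. The 3 RAMOS libraries lay far below all 6 others, and replicate 2 was the highest of them. The log2 difference was −9.61 ± 0.322 against NALM6 and −10.45 ± 0.322 against 697 (SE) with all libraries, and −11.93 and −12.72 without RAMOS replicate 2. Without RAMOS replicate 3 it was −8.98 against NALM6. RAG1, the catalytic subunit of the recombinase, had 0.594, 5.75 and 0.794 CPM in RAMOS, against 572, 599 and 617 CPM in NALM6 and 227, 226 and 231 CPM in 697, and again replicate 2 was the highest in RAMOS. Its log2 difference was −7.69 ± 0.347 against NALM6 and −6.31 ± 0.36 against 697 (SE) with replicate 2 and −9.69 and −8.26 without it. Its partner RAG2 had 1.19, 1.28 and 1.19 CPM in RAMOS, against 188, 188 and 190.2 CPM in NALM6 and 143, 138 and 138 CPM in 697, with no such gap between replicates, and a log2 difference of −7.25 ± 0.0858 against NALM6 and −6.82 ± 0.0878 against 697 (SE) with replicate 2 and −7.34 and −6.87 without it.

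Both surrogate light chain genes were low. VPREB1 had 0.238, 1.19 and 0 CPM in RAMOS, against 285, 288 and 261 CPM in NALM6 and 230.2, 233 and 246 CPM in 697, and IGLL1 had 0.713, 2.77 and 0.794 CPM in RAMOS, against 598, 737 and 622 CPM in NALM6 and 458, 507 and 511 CPM in 697. The groups did not overlap for either gene, and replicate 2 was again the highest RAMOS library. The log2 difference of IGLL1 was −8.65 ± 0.258 against NALM6 and −8.23 ± 0.26 against 697 (SE) with replicate 2 and −9.76 and −9.31 without it. That of VPREB1 was −8.97 ± 0.286 against NALM6 and −8.73 ± 0.29 against 697 (SE) with replicate 2, and without it 2 RAMOS reads remained and no fold is given. IL7R, the receptor for the growth factor of early B cells, had 2.73, 3.37 and 2.38 CPM in RAMOS, against 253, 274 and 272 CPM in NALM6 and 359, 348 and 352 CPM in 697, a log2 difference of −6.54 ± 0.0751 against NALM6 and −6.94 ± 0.074 against 697 (SE) with replicate 2 and −6.79 and −7.15 without it. The surface protein gene CD24 had 0.357, 2.6 and 1.41 CPM in RAMOS, against 645, 648 and 644 CPM in NALM6 and 419, 413 and 416 CPM in 697, and the tetraspanin gene CD9 had 0.357, 1.28 and 0.0441 CPM in RAMOS, against 491, 503 and 479 CPM in NALM6 and 151, 147 and 150.4 CPM in 697. Both fell below all pre-B libraries (larger edgeR adjusted p = 2.11e-12 for CD24 and 2.96e-08 for CD9). The log2 difference of CD24 was −8.52 ± 0.144 against NALM6 and −7.89 ± 0.146 against 697 (SE) with replicate 2 and −9.21 and −8.53 without it. That of CD9 was −9.61 ± 0.229 against NALM6 and −7.90 ± 0.253 against 697 (SE) with replicate 2 and −11.87 and −10.11 without it, where 4 RAMOS reads remained.

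Not every member of the list was low. The receptor signalling chains were higher in RAMOS: CD79A had 728, 722 and 711 CPM in RAMOS, against 159, 165 and 154 CPM in NALM6 and 346, 352 and 377 CPM in 697, and CD79B had 760.0, 787 and 746 CPM in RAMOS, against 283, 310.4 and 284 CPM in NALM6 and 129.8, 136 and 137 CPM in 697. CD79A differed by 2.17 ± 0.0415 against NALM6 and 1.01 ± 0.0393 against 697 (SE) and CD79B by 1.38 ± 0.0407 against NALM6 and 2.51 ± 0.0429 against 697 (SE) on the log2 scale. The kinase gene LCK averaged 127 CPM in RAMOS, against 15.3 in NALM6 and 34.4 in 697, and IKZF3, the Aiolos factor gene, averaged 108 CPM in RAMOS, against 7.43 in NALM6 and 15.6 in 697. The end-joining genes that close RAG breaks went both ways. PRKDC averaged 1234 CPM in RAMOS, against 580.5 in NALM6 and 780.3 in 697 and was called higher, as were DCLRE1C and XRCC4. The ligase gene LIG4 averaged 20.3 CPM in RAMOS, against 113 in NALM6 and 43.1 in 697 and was called lower. So were NHEJ1 and the Ku genes XRCC5 and XRCC6. MME, which encodes the CD10 antigen of both pre-B and germinal centre cells, averaged 509 CPM in RAMOS, against 1357 in NALM6 and 93.8 in 697 and lay between the pre-B lines.

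**Figure D2:**
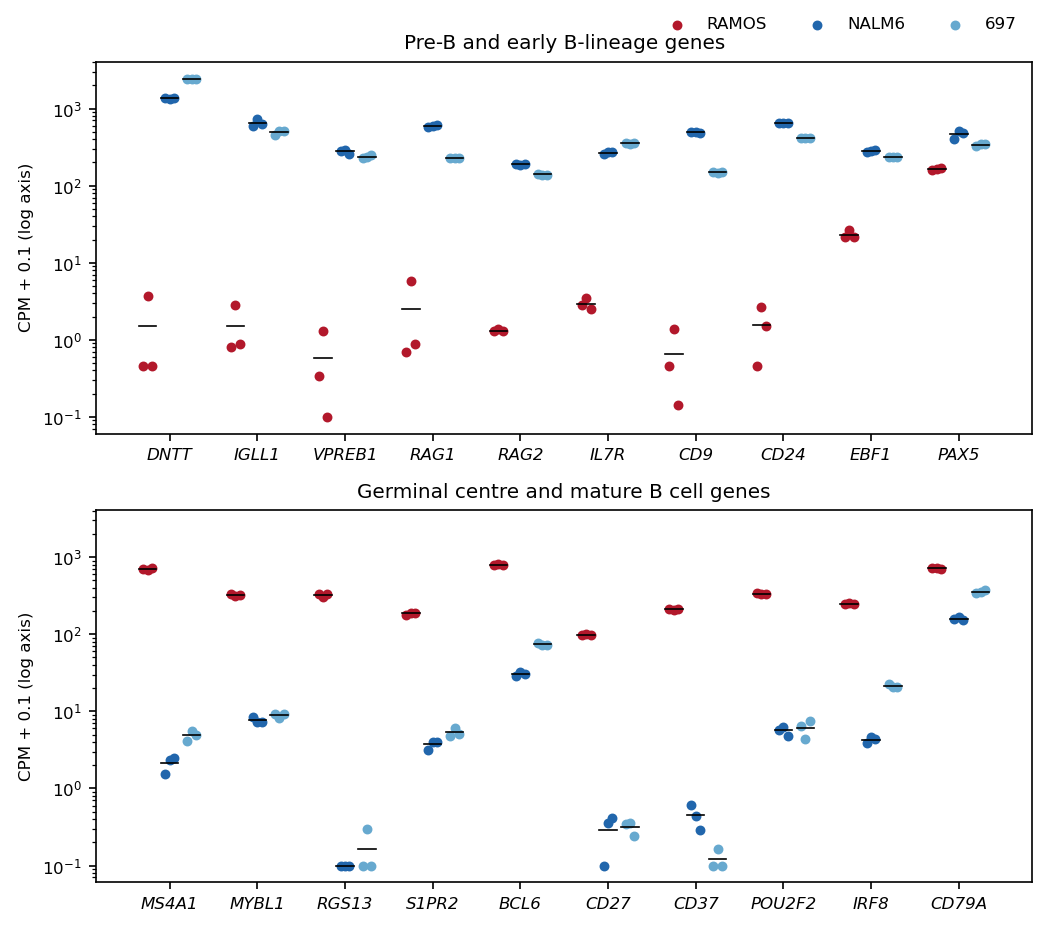
CPM plus 0.1 on a log axis of 10 pre-B and early B-lineage genes (top) and 10 germinal centre and mature B cell genes (bottom), 1 point per library with RAMOS left of NALM6 and 697, and a line at each mean. RAMOS lies below both lines in every top panel gene and above both in every bottom panel gene, with replicate 2 above the other RAMOS libraries for DNTT, IGLL1, VPREB1 and RAG1.

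Germinal centre genes were mostly higher in RAMOS. Of 33 tested, 20 were higher than in both pre-B lines, 16 of them at least 2-fold, and 5 were lower. The list's median log2 differences were 1.28 against NALM6 and 1.76 against 697. RGS13, which restrains G-protein signals in germinal centre B cells, had 332, 307 and 329 CPM in RAMOS, against 0, 0 and 0 CPM in NALM6 and 0, 0.193 and 0 CPM in 697. That was at least 6643-fold above NALM6 (floor of 3 counts in all NALM6 libraries together), and 6104 times 697, where there were 3 reads (95% counting interval 2088 to 29602). BCL6, the repressor that holds the germinal centre state, had 795, 808 and 802 CPM in RAMOS, against 28.5, 32.5 and 30.0 CPM in NALM6 and 76.7, 71.9 and 73.1 CPM in 697, a log2 difference of 4.70 ± 0.0492 against NALM6 and 3.44 ± 0.0444 against 697 (SE).

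Other germinal centre genes followed the same order. S1PR2, a receptor that keeps B cells inside the germinal centre, had 178, 191 and 188 CPM in RAMOS, against 3.06, 3.88 and 3.93 CPM in NALM6 and 4.73, 5.92 and 5.04 CPM in 697. MYBL1, a MYB-family factor gene, averaged 322 CPM in RAMOS, against 7.6 in NALM6 and 8.78 in 697, and ELL3, an elongation factor gene, averaged 382 CPM in RAMOS, against 9.9 in NALM6 and 8.47 in 697. CD27 averaged 97.7 CPM in RAMOS, against 0.192 in NALM6 and 0.215 in 697, and CD40, the receptor for T cell help, averaged 24.9 CPM in RAMOS, against 0.0902 in NALM6 and 0.225 in 697. CXCR5, the follicle homing receptor, had 5.94, 5.16 and 6.36 CPM in RAMOS and no read in either pre-B line, so it was at least 119.9-fold above NALM6 and at least 110.2-fold above 697. The 5 lower members were MYB, LMO2, NEK6, MEF2C and MARCKSL1. MYB, a progenitor factor, averaged 23.9 CPM in RAMOS, against 348 in NALM6 and 540.2 in 697, MEF2C averaged 81.4 CPM in RAMOS, against 191 in NALM6 and 1159.8 in 697, and LMO2 averaged 4.43 CPM in RAMOS, against 16.6 in NALM6 and 12.9 in 697. TCL1A, GCET2, STAP1 and MME lay between the pre-B lines.

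Surface genes of mature B cells were mostly higher in RAMOS. Of 31 tested, 22 were higher in RAMOS than in both pre-B lines, 19 at least 2-fold, and 1 was lower, with median log2 differences of 3.52 against NALM6 and 5.44 against 697. MS4A1, which encodes CD20, had 698, 688 and 716 CPM in RAMOS, against 1.44, 2.24 and 2.41 CPM in NALM6 and 4.08, 5.41 and 4.9 CPM in 697. All RAMOS libraries lay above all others, with a log2 difference of 8.36 ± 0.0749 against NALM6 and 7.20 ± 0.0667 against 697 (SE) (larger edgeR adjusted p = 7.62e-44). CD37, a tetraspanin gene of mature B cells, averaged 211 CPM in RAMOS, against 0.348 in NALM6 and 0.0215 in 697, and CD52 averaged 203 CPM in RAMOS, against 4.31 in NALM6 and 11.1 in 697. FCRL1, an Fc receptor-like gene, averaged 47.5 CPM in RAMOS, against 0.0384 in NALM6 and 0 in 697, and the nucleic acid sensor gene TLR7 averaged 26.8 CPM in RAMOS, against 0.0288 in NALM6 and 0.138 in 697. TLR9, a sensor of DNA, averaged 49.8 CPM in RAMOS, against 7.83 in NALM6 and 2.76 in 697. SLAMF6 averaged 148 CPM in RAMOS, against 0.0763 in NALM6 and 0.873 in 697. The lower member, LY9, averaged 1.4 CPM in RAMOS, against 2.28 in NALM6 and 9.5 in 697, and it lost its call without RAMOS replicate 1, without RAMOS replicate 3 and without NALM6 replicate 2.

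In the receptor's signalling pathway the calls went both ways, 25 higher and 10 lower of 46 tested, with median log2 differences of 0.74 against NALM6 and 0.70 against 697. PLCG2, the phospholipase of the pathway, had 483, 498 and 501 CPM in RAMOS, against 80.5, 82.3 and 85.2 CPM in NALM6 and 36.7, 38.3 and 36.2 CPM in 697. RASGRP3, a Ras exchange factor, had 214, 205 and 218 CPM in RAMOS, against 0.255, 0.576 and 0 CPM in NALM6 and 0.199, 0.129 and 0.185 CPM in 697. DAPP1, an adaptor gene, averaged 80.8 CPM in RAMOS, against 0.414 in NALM6 and 0.0215 in 697, and PTPRC, which encodes the CD45 phosphatase, averaged 253 CPM in RAMOS, against 1.25 in NALM6 and 145 in 697. The calcium channel gene ITPR3 averaged 395 CPM in RAMOS, against 60.9 in NALM6 and 89.8 in 697. These 5 were higher. Lower members included PTPN6, the inhibitory SHP-1 phosphatase, at 13.6 CPM in RAMOS, against 192 in NALM6 and 70.5 in 697, GAB2, an adaptor, at 1.76 CPM in RAMOS, against 66.7 in NALM6 and 47 in 697, and PIK3CD, the lymphocyte PI3-kinase catalytic chain, at 67.3 CPM in RAMOS, against 254 in NALM6 and 212 in 697. The adaptor gene BLNK was lower as well, BTK, SYK, PRKCB and RASGRP1 lay between the pre-B lines, and the calcium channel gene ORAI1 was below NALM6 only.

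Transcription factors of the B lineage divided almost evenly, 19 higher and 17 lower of 39. RUNX3, a runt-family factor, had 94.6, 103 and 101 CPM in RAMOS, against 0, 0 and 0 CPM in NALM6 and 0.0498, 0.193 and 0.0462 CPM in 697, at least 2091-fold above NALM6. POU2F2, the Oct-2 factor of B cells, had 338, 334 and 331 CPM in RAMOS, against 5.69, 6.19 and 4.75 CPM in NALM6 and 6.42, 4.31 and 7.35 CPM in 697, and its coactivator POU2AF1 averaged 1008 CPM in RAMOS, against 95.9 in NALM6 and 127 in 697. IRF8 averaged 248 CPM in RAMOS, against 4.19 in NALM6 and 21.1 in 697, SPIB averaged 151 CPM in RAMOS, against 26 in NALM6 and 29.1 in 697, and ETS1 averaged 761 CPM in RAMOS, against 123 in NALM6 and 130.1 in 697. TCF3, the E2A factor gene, averaged 1586 CPM in RAMOS, against 646 in NALM6 and 549 in 697, and IKZF1, the Ikaros gene, and SPI1, the PU.1 gene, were higher too. Among the lower factors, EBF1 had 21.2, 26.4 and 21.5 CPM in RAMOS, against 270.4, 284 and 293 CPM in NALM6 and 233, 234 and 235 CPM in 697, a log2 difference of −3.59 ± 0.0587 against NALM6 and −3.32 ± 0.0588 against 697 (SE). PAX5, which holds B cell identity, had 159.8, 165 and 172 CPM in RAMOS, against 400.0, 507 and 482 CPM in NALM6 and 329, 349.7 and 342 CPM in 697, lower in every RAMOS library than in every pre-B library. IKZF2 averaged 9.65 CPM in RAMOS, against 151 in NALM6 and 138 in 697, LEF1 averaged 145 CPM in RAMOS, against 521 in NALM6 and 722 in 697 and RUNX1 averaged 48.1 CPM in RAMOS, against 208 in NALM6 and 479 in 697.

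Progenitor and leukemia factors were lower as a group, 14 of 21 tested against 1 higher, with median log2 differences of −2.38 against NALM6 and −2.21 against 697. ERG, an ETS factor of stem and progenitor cells, had 0, 0.682 and 0 CPM in RAMOS, against 126, 132 and 128 CPM in NALM6 and 102, 104 and 106 CPM in 697, and all its 16 RAMOS reads came from replicate 2. ZEB2 averaged 1.61 CPM in RAMOS, against 110.1 in NALM6 and 152 in 697, SOX4 averaged 32.5 CPM in RAMOS, against 243 in NALM6 and 312 in 697 and FLI1 averaged 42 CPM in RAMOS, against 221 in NALM6 and 273 in 697. GATA3 averaged 0.0852 CPM in RAMOS, also from replicate 2 alone, against 14.9 in NALM6 and 5.32 in 697. The higher member was MEIS2, a homeobox gene, at 38.2 CPM in RAMOS, against 0 in NALM6 and 5.04 in 697. A further 13 listed genes, such as MEIS1, GATA1 and HOXA9, were too low to be tested.

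**Figure D3:**
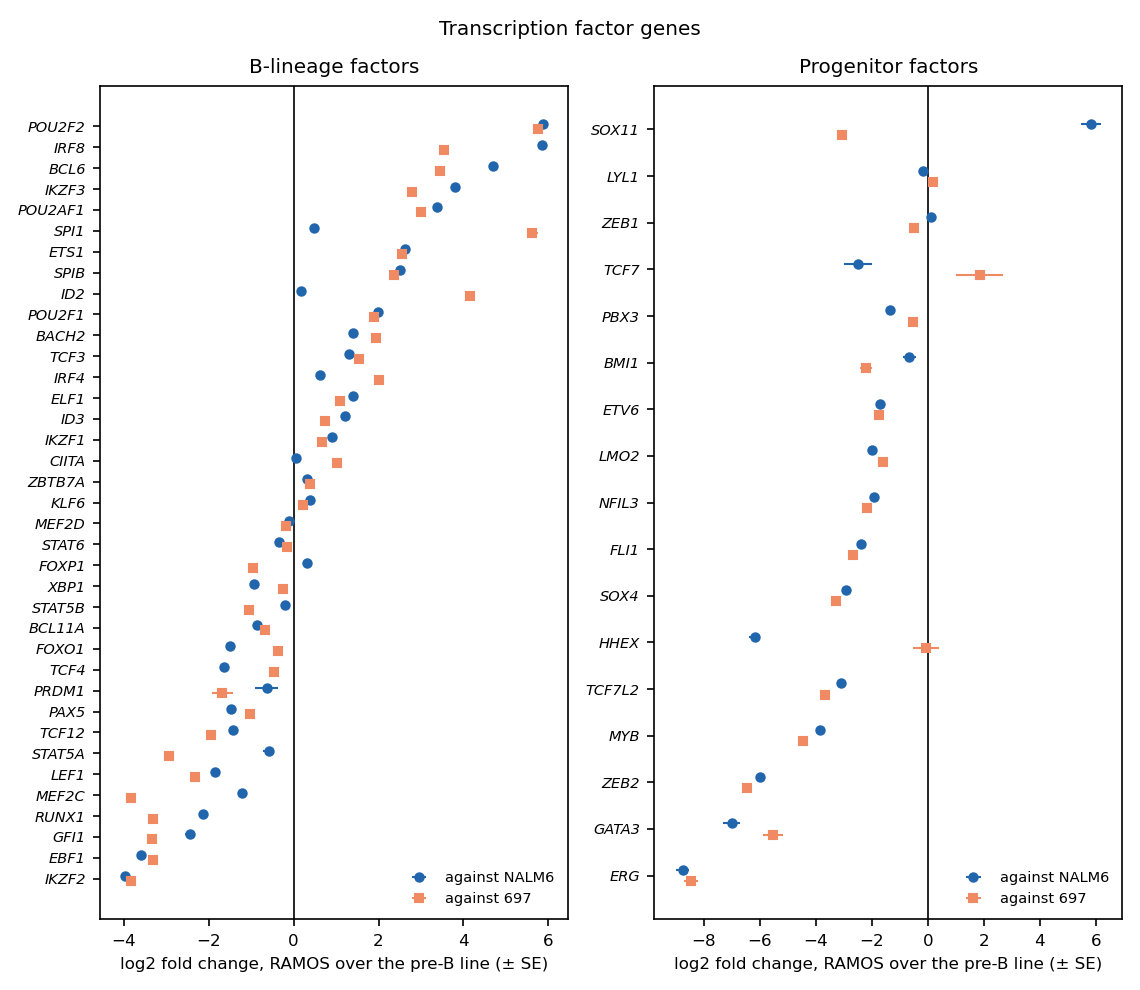
Log2 fold change of RAMOS over NALM6 (circles) and over 697 (squares), with the standard error, for B-lineage factor genes (left, 37 of 39 tested) and progenitor factor genes (right, 17 of 21 tested) with more than 3 reads in each line. POU2F2, IRF8 and BCL6 stand at the top of the left panel, EBF1 and IKZF2 at its foot, and most progenitor factors lie left of 0, where ERG rests on RAMOS replicate 2.

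Genes of plasma cells, the antibody-secreting end stage, were higher in 14 of 20 cases and lower in 3. IGJ, which encodes the joining chain of IgM and IgA, had 2712, 2588 and 2632 CPM in RAMOS, against 1.7, 1.67 and 2.03 CPM in NALM6 and 760.2, 769 and 784 CPM in 697. MZB1, an endoplasmic reticulum factor for antibody assembly, averaged 454 CPM in RAMOS, against 109 in NALM6 and 98.2 in 697, DERL3 averaged 90.0 CPM in RAMOS, against 21.1 in NALM6 and 17.2 in 697, and the chaperone gene HSPA5 averaged 2238 CPM in RAMOS, against 884 in NALM6 and 700.2 in 697. Of the stage's transcription factors, IRF4 was higher, at 462 CPM in RAMOS, against 300.3 in NALM6 and 115 in 697, and PRDM1 and XBP1 were lower. PRDM1, which encodes Blimp-1, averaged 1.2 CPM in RAMOS, against 1.93 in NALM6 and 4.16 in 697 and its call was lost in DESeq2, without RAMOS replicate 1 and without NALM6 replicate 2. XBP1 averaged 309.7 CPM in RAMOS, against 588 in NALM6 and 367 in 697, and SDC1, the CD138 antigen gene, averaged 0.114 CPM in RAMOS, against 96.8 in NALM6 and 0.194 in 697, lower than NALM6 only.

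Signalling to NF-κB showed 13 higher and 3 lower of 21 tested members, with median log2 differences of 0.69 and 0.85 against NALM6 and 697. BIRC3, which encodes the ubiquitin ligase cIAP2 and is a target of the pathway, had 207, 198 and 210.2 CPM in RAMOS, against 1 read in NALM6 and 1 read in 697. The ratios were 12723 (95% counting interval 2283 to 502590.0) and 11691 (2098 to 461830.0). The subunit genes REL, RELB and NFKB2 were higher, with RELB at 64.8 CPM in RAMOS, against 3.19 in NALM6 and 5.57 in 697 and NFKB2 at 106 CPM in RAMOS, against 21.2 in NALM6 and 20.3 in 697, whereas NFKB1 was lower and RELA lay between the lines. TRAF3, which restrains the noncanonical branch, had 1.66, 2.34 and 2.65 CPM in RAMOS, against 86.8, 101 and 92.7 CPM in NALM6 and 91.7, 94 and 95.9 CPM in 697. The RAMOS libraries lay below all 6 pre-B libraries, with a log2 difference of −5.32 ± 0.0972 against NALM6 and −5.31 ± 0.0971 against 697 (SE), and −5.35 and −5.31 without RAMOS replicate 2. TNFAIP3, a feedback inhibitor, averaged 27.9 CPM in RAMOS, against 94.6 in NALM6 and 68.4 in 697 and was also lower.

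In the list of the BCL2 family and death receptors 9 of 25 were higher and 7 lower, near the shares over all genes. BCL2, which blocks mitochondrial apoptosis, had 0, 1.19 and 0.177 CPM in RAMOS, against 94.9, 103 and 98.9 CPM in NALM6 and 147, 143 and 145 CPM in 697, and replicate 2 was the highest RAMOS library. Its log2 difference was −7.39 ± 0.253 against NALM6 and −7.94 ± 0.243 against 697 (SE) with replicate 2 and −9.56 and −10.07 without it. BCL2L1, the gene of the related protector BCL-XL, had 243, 255 and 238 CPM in RAMOS, against 64.1, 77.9 and 71.6 CPM in NALM6 and 78.9, 78.6 and 75.6 CPM in 697, and MCL1 averaged 508 CPM in RAMOS, against 222 in NALM6 and 267 in 697, both higher. The killer gene BIK averaged 68.4 CPM in RAMOS, against 6.26 in NALM6 and 0.22 in 697, and BMF averaged 43.2 CPM in RAMOS, against 4.87 in NALM6 and 6.31 in 697. BBC3, which encodes the killer PUMA, averaged 1.43 CPM in RAMOS, against 7.28 in NALM6 and 8.51 in 697 and was lower. CDKN1A, a p53 target that encodes p21, had 1.43, 1.75 and 1.19 CPM in RAMOS, against 150.3, 156 and 148 CPM in NALM6 and 159, 154 and 163 CPM in 697. Of the 36 tested members of the p53 pathway list, 10 were higher and 13 lower, near the shares over all genes. BTG2, an antiproliferative target, averaged 549 CPM in RAMOS, against 48 in NALM6 and 22.8 in 697, and with RRM2B it was 1 of 2 members at least 2-fold higher.

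Cell cycle genes of G2 and mitosis were higher in 21 of 31 cases and lower in 1, with modest median log2 differences of 0.47 against NALM6 and 0.58 against 697. Only 3 of the 21, CDC25B, TPX2 and CENPA, passed 2-fold against both lines. CDC25B, a phosphatase that starts mitosis, averaged 300.3 CPM in RAMOS, against 69.8 in NALM6 and 74.3 in 697, and TPX2, a spindle factor, averaged 664 CPM in RAMOS, against 260.3 in NALM6 and 263 in 697. The lower member, DLGAP5, at 89.6 CPM in RAMOS, against 107 in NALM6 and 96.4 in 697, lost its call in 7 of the other settings tried. G1/S genes showed 8 higher and 10 lower of 28, with MCM2 at 199.9 CPM in RAMOS, against 522 in NALM6 and 670.4 in 697 and UHRF1, which maintains DNA methylation, at 187 CPM in RAMOS, against 1012 in NALM6 and 655 in 697 the only ones lower by 2-fold. Of 14 tested genes of D-type cyclins, cyclin-dependent kinases, their inhibitors and the RB family, 4 were higher and 7 lower. CDKN2A, the p16 and ARF locus, had 59.1, 61.3 and 65.3 CPM in RAMOS, against 0, 0 and 0 CPM in NALM6 and 0.448, 0.451 and 0.509 CPM in 697, at least 1299.9-fold above NALM6. The inhibitor genes CDKN2B and CDKN2D were higher too, and CDKN1A and CDKN1C were lower. The inhibitor gene CDKN1B averaged 9.61 CPM in RAMOS, against 61.7 in NALM6 and 42.2 in 697, the retinoblastoma gene RB1 averaged 76.3 CPM in RAMOS, against 374 in NALM6 and 274 in 697 and the D-type cyclin gene CCND3 averaged 287 CPM in RAMOS, against 990.5 in NALM6 and 1288 in 697, all lower.

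MYC itself did not pass the test in either comparison. It had 766, 789 and 795 CPM in RAMOS, against 759.6, 807 and 747 CPM in NALM6 and 774, 826 and 826 CPM in 697, with log2 differences of 0.02 ± 0.0382 against NALM6 and −0.05 ± 0.0381 against 697 (SE) (larger edgeR adjusted p = 0.59). Burkitt lymphoma is known for a translocation that places MYC beside an immunoglobulin gene. Of 25 tested members of the MYC network, 5 were higher and 10 lower. Ribosome biogenesis genes were lower in 20 of 40 cases and higher in 5, with median log2 differences of −0.15 and −0.20. Ribosomal protein genes were lower in 53 of 77 and higher in 2, with medians of −0.36 against NALM6 and −0.81 against 697, and only 2 were lower by 2-fold. Those 2 were RPL24, at 214 CPM in RAMOS, against 565 in NALM6 and 901 in 697, and RPS12, at 437 CPM in RAMOS, against 1362 in NALM6 and 1657 in 697, and the higher ones were RPL17 and RPL41. Many ribosomal protein genes have near-identical processed copies, so their counts are uncertain. Widely expressed reference genes such as GUSB and HPRT1 were lower in 16 of 29 and higher in 6. Their medians of −0.22 against NALM6 and −0.31 against 697 were smaller in size than those of the ribosomal protein genes. They were larger in size than those of the ribosome biogenesis genes.

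Metabolic genes differed by pathway. Of 28 tested genes of cholesterol and fatty acid synthesis, 20 were higher in RAMOS than in both lines and 5 lower, with median log2 differences of 1.15 against NALM6 and 0.84 against 697. HMGCS1, an early enzyme of the mevalonate pathway, had 1064, 1021 and 1086 CPM in RAMOS, against 186, 181 and 180.2 CPM in NALM6 and 357, 354 and 366 CPM in 697. SREBF2, the factor that drives the pathway's genes, averaged 858 CPM in RAMOS, against 252 in NALM6 and 404 in 697, the feedback gene INSIG1 averaged 610.2 CPM in RAMOS, against 146 in NALM6 and 171 in 697 and the desaturase gene SCD averaged 1559 CPM in RAMOS, against 349 in NALM6 and 687 in 697. SREBF1, FADS1, FADS2, ACLY and MYLIP were lower, with SREBF1 at 71.4 CPM in RAMOS, against 95.9 in NALM6 and 209 in 697, and MYLIP lost its call in 8 of the other settings tried.

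Of 30 genes of glycolysis and hypoxia-linked metabolism, 20 were lower and 5 higher, with median log2 differences of −0.46 and −0.73. ENO1, an enolase gene, averaged 1536 CPM in RAMOS, against 2943 in NALM6 and 3739.5 in 697, and its paralog ENO2 averaged 0.609 CPM in RAMOS, against 25.6 in NALM6 and 23.4 in 697. The glucose transporter gene SLC2A3 averaged 0.333 CPM in RAMOS, against 7.2 in NALM6 and 11.3 in 697. SLC2A1, another glucose transporter, went the other way at 137 CPM in RAMOS, against 85.4 in NALM6 and 59.6 in 697, as did SLC16A3, a lactate exporter gene, at 7.43 CPM in RAMOS, against 0.0671 in NALM6 and 0.0535 in 697 and ADM, a hypoxia-linked peptide gene, at 15.8 CPM in RAMOS, against 0.0211 in NALM6 and 0 in 697.

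Among 29 genes of serine, one-carbon and amino acid metabolism, 16 were higher and 6 lower. ASNS, which makes asparagine, had 768, 758 and 769.6 CPM in RAMOS, against 43.1, 46.1 and 45.9 CPM in NALM6 and 52.2, 49.6 and 56.6 CPM in 697, a log2 difference of 4.08 ± 0.0477 against NALM6 and 3.85 ± 0.0466 against 697 (SE). CBS, of the path from homocysteine to cysteine, averaged 389 CPM in RAMOS, against 28.6 in NALM6 and 25.9 in 697, and the amino acid transporter gene SLC1A4 averaged 296 CPM in RAMOS, against 60.0 in NALM6 and 76.5 in 697. CHAC1, which degrades glutathione, averaged 34.3 CPM in RAMOS, against 5.22 in NALM6 and 5.03 in 697, and DDIT3, which encodes the stress factor CHOP, averaged 37.5 CPM in RAMOS, against 14.4 in NALM6 and 16.8 in 697. ATF4, the factor that drives many of these genes, averaged 526 CPM in RAMOS, against 383 in NALM6 and 379 in 697. SLC38A2, a transporter of small neutral amino acids, had 4.75, 6.39 and 5.3 CPM in RAMOS, against 221, 216 and 214 CPM in NALM6 and 276, 269 and 262 CPM in 697 and was among the lower ones, with ASS1, of arginine synthesis, at 1.11 CPM in RAMOS, against 39.3 in NALM6 and 31.4 in 697.

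The promoters of CHAC1 and SLC1A4 are shown because both hold an amino acid response element, the site that ATF4 dimers are known to bind. The letters searched were TTGCATCA on both strands, in RefSeq promoter windows of GRCh38.p14 that run from upstream of the start to just after it. Of the 24 tested members of the list with a window, 5 held it, which is 20.8%. Among all 10479 tested genes with a window 78 did, which is 0.744%, and among all 35116 windows 0.866%. By call the members were 3 of 13 higher, 1 of 6 lower and 1 of 5 others. The 2 shown were chosen after their values were seen, and capitals mark the match.
CHAC1, chr15:40953221-40953520, strand plus: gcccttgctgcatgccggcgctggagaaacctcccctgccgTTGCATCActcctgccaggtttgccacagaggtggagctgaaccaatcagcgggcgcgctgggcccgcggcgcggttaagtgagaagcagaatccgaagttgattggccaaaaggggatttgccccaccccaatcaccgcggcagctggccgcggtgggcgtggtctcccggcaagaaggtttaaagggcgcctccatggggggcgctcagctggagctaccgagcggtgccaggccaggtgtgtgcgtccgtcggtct
SLC1A4, chr2:64989149-64989448, strand plus: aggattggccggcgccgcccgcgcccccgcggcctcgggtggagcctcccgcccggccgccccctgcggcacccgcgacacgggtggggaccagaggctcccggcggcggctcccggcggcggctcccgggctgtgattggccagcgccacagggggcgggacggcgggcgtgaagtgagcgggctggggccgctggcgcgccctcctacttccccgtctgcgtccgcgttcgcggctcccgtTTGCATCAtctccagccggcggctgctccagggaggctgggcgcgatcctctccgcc
A match is a run of letters and not a measured binding site.

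Interferon-stimulated genes were lower in RAMOS in 23 of 38 cases, 19 of them at least 2-fold, and higher in 7. The list's median log2 differences were −1.43 against NALM6 and −1.75 against 697. HERC5, a ligase gene for the ubiquitin-like ISG15, had 0.119, 0.256 and 0.0883 CPM in RAMOS, against 91.1, 88 and 97.2 CPM in NALM6 and 86, 82 and 78.7 CPM in 697, a log2 difference of −9.07 ± 0.148 against NALM6 and −8.91 ± 0.15 against 697 (SE) from 9 RAMOS reads. Without replicate 2 it was −9.84 and −9.64, from 3 reads. IFITM2, which blocks virus entry, had 0.357, 1.36 and 0.265 CPM in RAMOS, against 264, 288 and 264 CPM in NALM6 and 109.9, 104 and 110.3 CPM in 697, and PARP9 averaged 1.74 CPM in RAMOS, against 33.1 in NALM6 and 42.1 in 697. IFIT3 averaged 0.507 CPM in RAMOS, against 24.3 in NALM6 and 6.18 in 697, ISG15 averaged 5.97 CPM in RAMOS, against 24.4 in NALM6 and 25.9 in 697 and IRF1 averaged 18.9 CPM in RAMOS, against 80.6 in NALM6 and 94.8 in 697. RAMOS libraries lay below all pre-B libraries for these genes. The higher members were ISG20, MX1, OAS1, STAT2, IRF9, IFIH1 and BST2. ISG20, an RNA exonuclease gene, had 81.5, 85.6 and 77 CPM in RAMOS, against 1.44, 2.16 and 1.9 CPM in NALM6 and 3.63, 3.16 and 3.05 CPM in 697, OAS1 averaged 47.7 CPM in RAMOS, against 7.06 in NALM6 and 4.93 in 697 and BST2, which tethers budding viruses, averaged 107 CPM in RAMOS, against 63.8 in NALM6 and 29 in 697. Of the interferon receptor genes, IFNAR1 averaged 90.7 CPM in RAMOS, against 66.1 in NALM6 and 49.8 in 697 and IFNAR2 averaged 86.2 CPM in RAMOS, against 15.8 in NALM6 and 24.3 in 697, and both were higher, as was IFNGR2. IFNGR1 was lower than NALM6 only.

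Promoters of both directions held the same element. The interferon-stimulated response element was searched as GAAANNGAAA on both strands, where its complement reads TTTCNNTTTC. It stood in 20 of 30 tested members with a promoter window, which is 66.7%, and by call in 12 of 16 lower, 4 of 7 higher and 4 of 7 other members. The share was 4.01% over all tested genes with a window and 3.57% over all windows. The windows of HERC5 and IFIT3, lower in RAMOS, and of ISG20 and BST2, higher in RAMOS, are shown because they hold the element whichever way the gene differed. They were chosen after their values were seen, capitals mark the matches, and matches of HERC5 and of BST2 overlap each other.
HERC5, chr4:88456869-88457168, strand plus: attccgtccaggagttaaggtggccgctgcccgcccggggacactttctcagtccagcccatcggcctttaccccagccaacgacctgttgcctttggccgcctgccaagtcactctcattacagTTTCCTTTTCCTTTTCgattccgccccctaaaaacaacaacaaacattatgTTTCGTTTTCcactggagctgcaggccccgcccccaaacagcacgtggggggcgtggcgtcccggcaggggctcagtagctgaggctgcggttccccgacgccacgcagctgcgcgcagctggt
IFIT3, chr10:89327747-89328046, strand plus: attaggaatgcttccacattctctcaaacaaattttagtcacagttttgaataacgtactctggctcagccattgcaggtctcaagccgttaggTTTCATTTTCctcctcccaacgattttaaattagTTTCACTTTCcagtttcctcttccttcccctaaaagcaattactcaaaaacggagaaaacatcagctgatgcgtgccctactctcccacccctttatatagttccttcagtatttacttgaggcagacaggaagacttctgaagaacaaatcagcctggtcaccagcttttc
ISG20, chr15:88638766-88639065, strand plus: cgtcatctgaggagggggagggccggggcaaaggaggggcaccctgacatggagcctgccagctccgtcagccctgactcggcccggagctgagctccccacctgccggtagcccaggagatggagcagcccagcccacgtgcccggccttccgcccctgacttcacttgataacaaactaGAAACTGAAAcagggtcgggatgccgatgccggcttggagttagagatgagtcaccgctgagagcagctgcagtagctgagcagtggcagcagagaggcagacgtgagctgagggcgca
BST2, chr19:17405581-17405880, strand minus: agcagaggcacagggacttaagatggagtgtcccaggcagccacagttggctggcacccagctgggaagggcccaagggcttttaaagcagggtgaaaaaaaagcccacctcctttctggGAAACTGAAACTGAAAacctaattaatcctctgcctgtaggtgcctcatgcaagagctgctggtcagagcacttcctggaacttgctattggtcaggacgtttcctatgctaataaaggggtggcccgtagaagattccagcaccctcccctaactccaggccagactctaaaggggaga
These letters are a description of the windows and not measured binding sites.

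**Figure D4:**
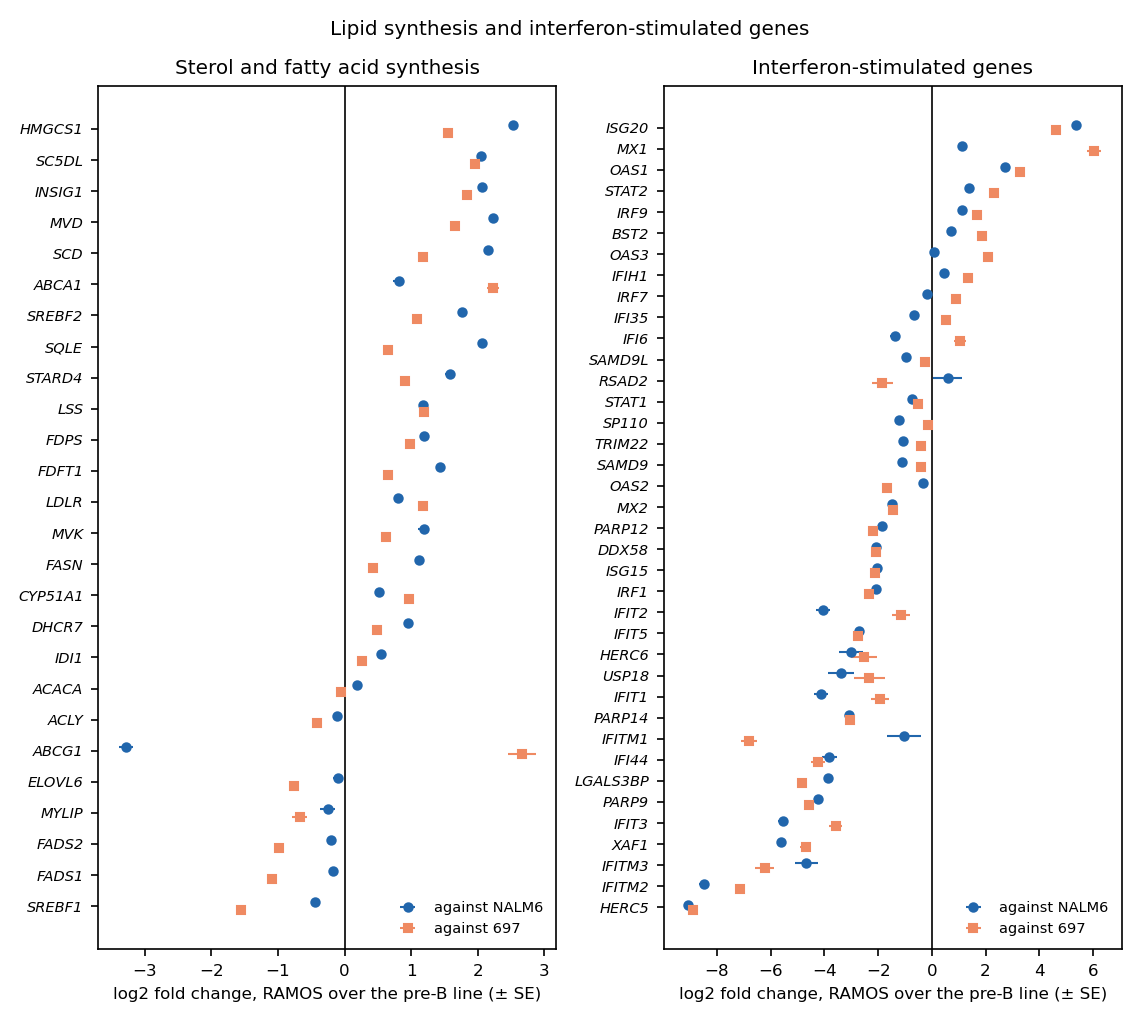
Log2 fold change of RAMOS over NALM6 (circles) and over 697 (squares), with the standard error, for 26 of 28 tested genes of cholesterol and fatty acid synthesis (left) and 38 interferon-stimulated genes (right). Most lipid synthesis genes lie right of 0 against both lines, and most interferon-stimulated genes lie left of 0, with ISG20, MX1 and OAS1 on the other side.

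Antigen presentation could be read only in part. CD74, the invariant chain of MHC class II, averaged 1695 CPM in RAMOS, against 1374 in NALM6 and 1098 in 697, and the activator gene CIITA averaged 90.6 CPM in RAMOS, against 87.5 in NALM6 and 44.3 in 697, higher than 697 only. HLA-DRA had 3 reads in RAMOS and averaged 0.0431 CPM in RAMOS, against 36.5 in NALM6 and 3.5 in 697, and HLA-B averaged 89.5 CPM in RAMOS, against 193 in NALM6 and 297 in 697. Of 138 protein-coding genes of the MHC region of chromosome 6 in the files, 80 had 3 reads or fewer over all 9 libraries, which is 58%, against 22.9% of 16869 genes elsewhere. HLA alleles differ between lines and from any reference, so counts of HLA genes are uncertain, and the part of read mapping was not tested. Outside the region, ERAP2, a peptide trimming enzyme gene, averaged 12.4 CPM in RAMOS, against 132 in NALM6 and 121 in 697, and B2M, the class I light chain, averaged 697 CPM in RAMOS, against 1017 in NALM6 and 1256 in 697, both lower.

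Among 21 tested deaminase and mismatch or base excision repair genes 8 were higher and 6 lower. APOBEC3G, a restriction factor, had 5.47, 7.24 and 8.87 CPM in RAMOS, against 159, 164 and 158 CPM in NALM6 and 34.1, 32.3 and 36 CPM in 697, and APOBEC3D, APOBEC3F and APOBEC3H were lower too, although these genes resemble one another closely and may share reads. APOBEC3B averaged 20.6 CPM in RAMOS, against 6.44 in NALM6 and 11.5 in 697 and was higher. POLI, a polymerase gene of error-prone repair, averaged 36.9 CPM in RAMOS, against 6.42 in NALM6 and 6.56 in 697, and UNG, which removes uracil from DNA, averaged 187 CPM in RAMOS, against 97 in NALM6 and 169 in 697, both higher. MSH6, of mismatch repair, averaged 419.6 CPM in RAMOS, against 193 in NALM6 and 1253 in 697 and lay between the pre-B lines.

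Adhesion and trafficking genes were called higher in 13 and lower in 9 of 27 cases, nearly all by 2-fold. ITGAL, the alpha chain of the integrin LFA-1, had 254, 264 and 266 CPM in RAMOS, against 0.17, 0.0576 and 0.0634 CPM in NALM6 and 0, 0 and 0 CPM in 697, at least 5019-fold above 697, where it had no read. Its beta chain gene ITGB2 averaged 6.16 CPM in RAMOS, against 13.8 in NALM6 and 41.6 in 697 and was lower. ICAM1, which binds LFA-1, averaged 115 CPM in RAMOS, against 20.7 in NALM6 and 2.91 in 697. ICAM3, another ligand of it, averaged 66.6 CPM in RAMOS, against 3.78 in NALM6 and 4.05 in 697. ITGA5, the fibronectin receptor chain, averaged 0.345 CPM in RAMOS, against 38.9 in NALM6 and 188 in 697, and ITGA4 averaged 61.5 CPM in RAMOS, against 155 in NALM6 and 270.2 in 697. S1PR1, which guides cells out of lymphoid tissue, had no read in RAMOS, so it was at least 142-fold lower than NALM6 and at least 27.3-fold lower than 697.

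Across the cytokine receptor and JAK-STAT list 16 of 39 were higher and 13 lower, which is 41% and 33.3%, beside 33.2% and 30.2% over all genes tested. Among the receptors, IL4R had 370.1, 382 and 386 CPM in RAMOS, against 43.2, 48.1 and 44.4 CPM in NALM6 and 6.07, 7.34 and 7.26 CPM in 697. IL21R averaged 51.2 CPM in RAMOS, against 10.9 in NALM6 and 4.74 in 697, and IL10RA averaged 89.2 CPM in RAMOS, against 0 in NALM6 and 0.0985 in 697, at least 1866-fold above NALM6. These 3 were higher, IL15RA was lower, and IL2RG and IL6ST lay between the pre-B lines. The kinase gene PIM2 averaged 353 CPM in RAMOS, against 34.3 in NALM6 and 24.2 in 697. The feedback gene SOCS2 averaged 0.114 CPM in RAMOS, against 53.1 in NALM6 and 69.6 in 697, and its RAMOS reads all came from replicate 2. CISH, another feedback gene, averaged 0.0284 CPM in RAMOS, against 13 in NALM6 and 4.32 in 697, and both were lower. The feedback gene SOCS1 went the other way and was at least 2-fold higher in RAMOS than in each pre-B line.

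Among chromatin regulators 16 were higher and 8 lower of 33. DNMT3A, a de novo DNA methyltransferase gene, had 1.55, 1.79 and 2.21 CPM in RAMOS, against 56.1, 59.5 and 55.6 CPM in NALM6 and 102, 98.1 and 102 CPM in 697, a log2 difference of −4.89 ± 0.101 against NALM6 and −5.71 ± 0.0964 against 697 (SE), and −4.86 and −5.64 without RAMOS replicate 2. Its relative DNMT3B did not pass the test at 28.3 CPM in RAMOS, against 29 in NALM6 and 26.5 in 697. TET1, which oxidises methylated cytosine, had 18.3, 16.7 and 17.7 CPM in RAMOS, against 0.34, 0.317 and 0.697 CPM in NALM6 and 1 read in 697. EZH2, the Polycomb methyltransferase of germinal centre B cells, averaged 296 CPM in RAMOS, against 141 in NALM6 and 206 in 697, and the methyltransferase gene MLL3 averaged 350.1 CPM in RAMOS, against 67.6 in NALM6 and 69.1 in 697. WHSC1, which methylates histone H3, averaged 669 CPM in RAMOS, against 299 in NALM6 and 202 in 697.

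Long non-coding RNAs and microRNA host genes were higher in 15 of 23 cases and lower in 1. MALAT1, a nuclear RNA, had 2592, 2222 and 1912 CPM in RAMOS, against 103, 64.8 and 78.2 CPM in NALM6 and 66.2, 47.8 and 57 CPM in 697, a log2 difference of 4.81 ± 0.228 against NALM6 and 5.29 ± 0.234 against 697 (SE). All 3 RAMOS libraries lay above all pre-B libraries. KCNQ1OT1 averaged 53.8 CPM in RAMOS, against 2.35 in NALM6 and 1.47 in 697, NEAT1 averaged 275 CPM in RAMOS, against 67.5 in NALM6 and 77 in 697, and the lower member, MIR181A2HG, averaged 0.277 CPM in RAMOS, against 1.29 in NALM6 and 2.47 in 697. Levels of such RNAs can depend on how a library was made, and the part of the pools was not tested. On 1 scaling over the 17 untreated libraries, MALAT1 averaged 267 CPM in JURKAT, 352 CPM in THP1 and 138 CPM in U937.

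MIR17HG, the host transcript of the miR-17-92 cluster on chromosome 13, had 179, 169 and 162 CPM in RAMOS, against 5.1, 3.34 and 2.53 CPM in NALM6 and 24, 19.5 and 18.6 CPM in 697, above all pre-B libraries. This cluster is known to be a direct MYC target and to be amplified in some lymphomas. The mature miRNAs were not measured here. Their sequences are shown because they are what the host transcript yields, with the seed, bases 2 to 8, in capitals (RefSeq, GRCh38.p14).
hsa-miR-17-5p, chr13:91350618-91350640, strand plus: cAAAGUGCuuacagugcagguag
hsa-miR-20a-5p, chr13:91351072-91351094, strand plus: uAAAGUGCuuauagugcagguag
hsa-miR-18a-5p, chr13:91350756-91350778, strand plus: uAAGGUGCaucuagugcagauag
hsa-miR-19a-3p, chr13:91350939-91350961, strand plus: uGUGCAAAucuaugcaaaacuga
hsa-miR-19b-3p, chr13:91351245-91351267, strand plus: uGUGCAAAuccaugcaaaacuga
hsa-miR-92a-3p, chr13:91351361-91351382, strand plus: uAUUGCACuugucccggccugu
The 6 miRNAs carry 4 seeds, since miR-17-5p shares its seed with miR-20a-5p and miR-19a-3p with miR-19b-3p.

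Ranked by the smaller of the ratios to NALM6 and 697, the genes farthest above both lines were PEG10, QPCT, ST14, IGF2BP1, RGS13, MYO1E, ITGAL, BMP7, BIRC3, TNFSF8, RASGRP3, DOCK8, ABLIM1, CD37 and NAPSB. PEG10, a gene derived from a retrotransposon, had 524, 541 and 564 CPM in RAMOS, against 5 reads in NALM6 and 3 reads in 697. QPCT, a glutaminyl cyclase gene, had 376, 378 and 374 CPM in RAMOS and no read in the pre-B lines, at least 7809-fold above NALM6 and at least 7175-fold above 697. The same held for ST14, the matriptase protease gene, with 307, 332 and 308 CPM in RAMOS, for IGF2BP1, an RNA-binding protein gene of fetal tissue, with 305, 298 and 318 CPM, and for TNFSF8, the CD30 ligand gene, with 195, 193 and 185 CPM. BMP7, a bone morphogenetic protein gene, had 253, 267 and 262 CPM in RAMOS, against 0.085, 0.0863 and 0.19 CPM in NALM6 and 0.0498, 0.193 and 0.0925 CPM in 697. DOCK8, a guanine nucleotide exchange factor gene of immune cells, had 235, 227 and 225 CPM in RAMOS, against 0, 0 and 0 CPM in NALM6 and 0.348, 0.515 and 0.324 CPM in 697, and the actin-binding gene ABLIM1 had 676, 686 and 696 CPM in RAMOS, against 2.29, 3.91 and 3.74 CPM in NALM6 and 3.68, 2.58 and 2.31 CPM in 697. Only genes with every RAMOS library beyond every pre-B library entered this ranking, so the lack of overlap was a condition and not a result.

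The genes farthest below both lines were DNTT, VIM, PXDN, IGLL1, MDK, APP, CD24, VPREB1, GLUL, UGT3A2, NRIP1, ADD2, PRNP, GPSM1 and CD9. VIM, which encodes the filament protein vimentin, had 1.43, 6.99 and 1.46 CPM in RAMOS, against 1311, 1413 and 1383 CPM in NALM6 and 1332, 1354 and 1332 CPM in 697, a log2 difference of −8.49 ± 0.319 against NALM6 and −8.46 ± 0.319 against 697 (SE) with replicate 2 and −9.92 and −9.85 without it. The peroxidase gene PXDN had 0, 1.92 and 0 CPM in RAMOS, against 395, 451 and 429 CPM in NALM6 and 397, 412 and 418 CPM in 697, and its RAMOS reads, like those of the corepressor gene NRIP1 and the cytoskeletal gene ADD2, came from replicate 2 alone. MDK, a growth factor gene, had 0.357, 0.937 and 0.75 CPM in RAMOS, against 325, 349.8 and 328 CPM in NALM6 and 391, 426 and 451 CPM in 697, and APP, the amyloid precursor gene, had 0.238, 1.7 and 0.309 CPM in RAMOS, against 312, 335 and 331 CPM in NALM6 and 448, 448 and 462 CPM in 697. GLUL, which makes glutamine, had 0.713, 2.73 and 0.662 CPM in RAMOS, against 339.8, 363 and 351 CPM in NALM6 and 707, 700.0 and 699 CPM in 697. UGT3A2, a glycosyltransferase gene, had 0.238, 0.256 and 0 CPM in RAMOS, against 154, 164 and 159 CPM in NALM6 and 297, 308 and 312 CPM in 697, with little difference between RAMOS replicates 1 and 2.

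The genes that the rule left out show where the pre-B lines disagreed. With at least 2-fold each way, 257 genes were above one line and below the other. ANXA5, the annexin A5 gene, averaged 11.8 CPM in RAMOS, against 74.4 in NALM6 and 1.34 in 697, and the cholesterol exporter gene ABCG1 averaged 5.08 CPM in RAMOS, against 48.9 in NALM6 and 0.757 in 697. SOX11, a factor gene of early lymphoid leukemia and mantle cell lymphoma, averaged 4.89 CPM in RAMOS, against 0.0667 in NALM6 and 40.5 in 697, and SLC27A2, a fatty acid transporter gene, averaged 8.78 CPM in RAMOS, against 0.149 in NALM6 and 72.3 in 697. Only genes whose 3 RAMOS libraries lay between the pre-B lines without overlap could be named here, so the lack of overlap is no result.

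Other blood cell lines of the series place some of these genes. On 1 scaling over the 17 untreated libraries, MS4A1 had no read in JURKAT, THP1 and U937. DNTT averaged 78.7 CPM in JURKAT, 0 CPM in THP1 and 0.174 CPM in U937. VIM averaged 495 CPM in JURKAT, 119 CPM in THP1 and 303 CPM in U937, TRAF3 averaged 81.8 CPM in JURKAT, 91.3 CPM in THP1 and 92.4 CPM in U937, and DNMT3A averaged 86.7 CPM in JURKAT, 50.5 CPM in THP1 and 34.7 CPM in U937, all higher than the RAMOS levels. ASNS averaged 91.7 CPM in JURKAT, 22.7 CPM in THP1 and 24.6 CPM in U937. QPCT had no read in JURKAT and U937 and averaged 5.84 CPM in THP1. These levels were not tested.

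The same contrasts in the etoposide-treated libraries used no sample of the comparison above, 3 of RAMOS, 3 of NALM6 and 2 of 697. The treated RAMOS libraries lay in the pool of the untreated RAMOS libraries, and the treated pre-B libraries lay in another pool than their controls. Of 14350 genes tested there, 4232 were higher in RAMOS than in both pre-B lines, which is 29.5%, and 4645 were lower, which is 32.4%. Higher in both conditions were 2761 genes, 61.4% of the untreated and 65.2% of the treated list. Lower in both were 2665, 65.1% of the untreated and 57.4% of the treated list. Of the genes at least 2-fold higher in untreated RAMOS, 1453 or 67.6% were also higher under treatment, and of those at least 2-fold lower, 1656 or 90.1% were also lower. Opposite calls under treatment were found for 314 of the higher and 344 of the lower genes.

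By list, 18 of the 20 higher germinal centre genes, 18 of the 22 higher mature surface genes and 20 of the 23 lower interferon-stimulated genes had the same call in treated cells. For ribosomal protein genes it was 40 of 53 lower ones, for sterol and fatty acid genes 14 of 20 higher ones and for non-coding RNAs 9 of 15 higher ones. Glycolysis kept 9 of 20 lower genes, with 1 turned to higher, the MYC network 4 of 10 lower ones, and ribosome biogenesis 12 of 20 lower ones, with 2 turned to higher. DNTT averaged 0.305 CPM in treated RAMOS, against 408 CPM in treated NALM6 and 815 CPM in treated 697, MS4A1 averaged 633 CPM in treated RAMOS, against 1.72 CPM in treated NALM6 and 3.65 CPM in treated 697, and MALAT1 averaged 1938 CPM in treated RAMOS, against 208 CPM in treated NALM6 and 269.6 CPM in treated 697. Of the p53 pathway list 36 of 38 tested were lower in treated RAMOS. All 13 that were lower without drug were among them, and so were 9 of the 10 that were higher without drug. Of G1/S genes 25 of 28 were higher in treated RAMOS, 8 of them genes that were lower without drug.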

How the data were processed

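RNA-seq libraries of established human blood cell lines were analysed as gene read counts, deposited by the authors 1 file per library. HISAT, HTSeq, DESeq2 and hg19 are named, without versions, in the submitters' processing notes. Whether replicates came from separate cultures is not given in the sources used here, so p-values measure the spread between these libraries, which may be technical. Every count column belonged to a named library and 0 columns were left unmapped.

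Untreated RAMOS, NALM6 and 697 libraries (3 each) were fitted together with edgeR 4.0.16 (R 4.3.3, TMM scaling, filterByExpr with a minimum count of 10, robust quasi-likelihood F test). Each contrast had its own Benjamini-Hochberg adjustment over all 13555 genes tested, and a gene was called where adjusted p was under 0.05 against each pre-B line with 1 sign. The contrasts against NALM6 and against 697 share the RAMOS libraries. Standard errors are the log2 difference divided by the square root of F. Folds against groups without reads use a floor of 3 counts over the group, and ratios over 1 to 3 reads carry exact 95% intervals. Floors and intervals cover counting error only. The test was checked on simulated data, with 13177 genes tested. Of 100 genes changed 2-fold in RAMOS 87 were recovered, and of 100 changed 1.5-fold 77 were, with 0 false calls. The simulated lines were otherwise alike, unlike the real ones, so scaling between lines that differ in many genes was not tested. Motifs were searched in RefSeq promoter windows of GRCh38.p14, while levels came from the deposited counts, and no coordinate was moved between builds.

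Named genes were the 15 per direction with the largest smaller ratio of mean CPM plus 1 among genes at least 2-fold different and not overlapping, up to 5 called members per direction of each list, up to 5 genes per direction with opposite signs, and key genes of the lineage. The genes with opposite signs had to differ at least 2-fold each way, with all RAMOS libraries between the lines and no overlap. Unnamed loci and non-coding or antisense entries were passed over in the ranking. APOBEC3B, ATF4, BST2, CD52, DNMT3B, ENO1, ETS1, FLI1, GATA3, HSPA5, IFIT3, IFNAR1, IFNAR2, IGJ, IL21R, IRF1, ISG15, ITGA4, ITGB2, LIG4, MME, MSH6, NEAT1, NFKB2, PRKDC, PTPRC, S1PR1, SCD, SDC1, SREBF2, TLR7, TLR9, UNG and the genes given only by their direction were named after their values were seen. Some listed genes are counted but not reported here. The comparison, its members and the gene lists were chosen with earlier results of these data known. Other scalings, filters, tools (DESeq2 1.42.0 and limma 3.58.1) and left-out libraries were tried, and their effect is given in the closing section.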

Additional observations from a re-analysis of the deposited data

Results flagged for a closer look

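Values are given for 7 genes, among those named by the rule or the lists, that turned in the etoposide-treated libraries. There the direction of the difference between RAMOS and both pre-B lines was opposite. More named genes turned than these 7, among them members of the p53 and G1/S lists. For the 7, the difference of the differences was itself tested (edgeR quasi-likelihood test of an interaction term over 17 libraries). The term was RAMOS against the mean of NALM6 and 697, treated minus untreated, Benjamini-Hochberg adjusted. The genes were picked by those opposite directions in the same libraries, so a non-zero interaction was built into the choice. The test is therefore no separate support for them. Treated pre-B libraries lay in another library pool than untreated ones, so pool and drug cannot be told apart in the pre-B lines. Values are means in CPM, scaled separately in the untreated and the treated libraries.

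MYB, the progenitor factor gene, averaged 190 CPM in treated RAMOS, against 145 in treated NALM6 and 55.4 in treated 697, and 23.9 CPM in untreated RAMOS, against 348 in untreated NALM6 and 540.2 in untreated 697. Its interaction was 5.30 on the log2 scale. LMO2, another progenitor factor gene, averaged 31.9 CPM in treated RAMOS, against 6.18 in treated NALM6 and 5.64 in treated 697, and 4.43 CPM in untreated RAMOS, against 16.6 in untreated NALM6 and 12.9 in untreated 697 (interaction 4.26). UHRF1 averaged 339.9 CPM in treated RAMOS, against 277 in treated NALM6 and 115 in treated 697, and 187 CPM in untreated RAMOS, against 1012 in untreated NALM6 and 655 in untreated 697 (interaction 3.10).

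BTG2, an antiproliferative p53 target, averaged 566 CPM in treated RAMOS, against 829.6 in treated NALM6 and 784 in treated 697, and 549 CPM in untreated RAMOS, against 48.0 in untreated NALM6 and 22.8 in untreated 697. Its interaction was −4.51, and the RAMOS means lay close together. RRM2B, the p53-dependent ribonucleotide reductase subunit gene, averaged 78.0 CPM in treated RAMOS, against 88.4 in treated NALM6 and 284 in treated 697, and 158 CPM in untreated RAMOS, against 38.4 in untreated NALM6 and 62.5 in untreated 697 (interaction −2.67). DDIT3 averaged 32.8 CPM in treated RAMOS, against 221 in treated NALM6 and 172 in treated 697, and 37.5 CPM in untreated RAMOS, against 14.4 in untreated NALM6 and 16.8 in untreated 697 (interaction −3.81). HIST1H4C, a replication-type histone gene, had an interaction of −5.13 that rests on few reads, 39 in untreated RAMOS, against 1 in untreated NALM6 and 16 in untreated 697.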

How the results depend on the processing

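Against the 4496 higher and 4091 lower genes, the rule of at least 2-fold left 2148 and 1837, and a test against 2-fold (glmTreat in edgeR) left 1796 and 1574. Leaving out 1 library at a time gave 4169 to 4587 higher and 3919 to 4152 lower genes. DESeq2's Wald test called 4406 and 4139, limma-voom 4554 and 4085, and a minimum count of 50 gave 3812 and 3947. The deviations of same-numbered libraries correlated between −0.06 and 0.15, with 1 of 9 pairs over 0.1. With 3 replicates per line, such correlations cannot settle whether replicate numbers paired the samples. A replicate block gave 4491 and 4082 genes. In the treated libraries the block gave 4100 higher and 4519 lower genes, an alternative added after the data were seen, and leaving out 1 library gave 4044 to 4324 and 4368 to 4649. Among the 308 named genes tried, no call of higher or lower turned into the opposite call. This covered the other scalings, filters, fits and tools, the replicate block and left-out untreated libraries, but not glmTreat or the treated libraries. Calls were lost in at least 1 setting for named genes that included PRDM1, LY9, MYLIP, DLGAP5, MXD1, HIST1H4C, HIST2H2BE, HLA-DRB3, NOP2, UTP20 and CHMP2A, and the cause was not tested. With 0.5 or 5 in place of 1 added to CPM in the ranking, 11 and 13 of the 15 top higher genes stayed in it, and 13 and 11 of the 15 top lower ones. Levels near 0 in RAMOS rest on few reads and on replicate 2, and pool and line cannot be told apart.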

Other observations

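The MYC network beyond MYC held members in both directions. MGA, which competes for MYC's partner MAX, averaged 172 CPM in RAMOS, against 66.2 in NALM6 and 35.4 in 697. CAD, of pyrimidine synthesis, averaged 506 CPM in RAMOS, against 319 in NALM6 and 368 in 697, while CDK4 averaged 232 CPM in RAMOS, against 448 in NALM6 and 559 in 697. Of 14 tested D cyclins, CDKs and their inhibitors, 4 were higher and 7 lower. CDK6, the partner of the D cyclins in early lymphoid cells, lay between the lines at 269 CPM in RAMOS, against 715 in NALM6 and 118 in 697.

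Of 21 tested genes of MHC class II and its regulators 7 were higher and 3 lower, and of 14 of class I and peptide loading 3 were higher and 6 lower. LGMN, a lysosomal protease gene, averaged 9.55 CPM in RAMOS and had no read in NALM6 and 697. The proteasome activator genes PSME1 and PSME2, which interferon is known to induce, averaged 144 and 157 CPM in RAMOS, against 306 and 342 in NALM6 and 352 and 296 in 697. Of 17 tested replication-type histone genes 3 were higher and 1 lower, at low counts.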
